A study of Homo sapiens with 18 samples.

Results

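ATF4 and unfolded protein response genes are the 42 genes of these data that stand for the response of a cell to misfolded protein in the endoplasmic reticulum (ER) and for the ATF4 program that this response shares with amino acid shortage. They were taken from a list of symbols, found by symbol among the 37256 genes of the DU145 table and then by Ensembl identifier in the tables of the other lines, and all 42 were present and were tested in each of the 3 lines. By role they comprise 3 sensors, 7 transcription factors, 13 ATF4 targets (8 for amino acid and one-carbon synthesis and 5 stress effectors), 15 ER chaperones and folding enzymes and 4 genes of ER-associated degradation. After knockdown of EMD, the gene of the inner nuclear membrane protein emerin, 11 of the 13 ATF4 targets fell in 22Rv1 and 10 of the 13 rose in DU145. Of the 15 chaperones and folding enzymes, 9 rose and 2 fell in 22Rv1, whereas 1 rose and 10 fell in DU145. In C4-2B both groups were divided, with 4 ATF4 targets higher and 5 lower and 6 chaperones higher and 8 lower. Of all tested genes, 33.5% rose and 34.3% fell in 22Rv1, 24.1% and 23.6% in DU145, and 19.4% and 22.3% in C4-2B.

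Misfolded protein in the ER is sensed by transmembrane proteins. IRE1 (ERN1) splices the XBP1 message, PERK (EIF2AK3) phosphorylates the translation factor eIF2 alpha, which lowers general translation but raises translation of ATF4, and ATF6 is cleaved to release a transcription factor. The ATF6 and XBP1 arms are known for inducing chaperones and degradation genes, and ATF4 for inducing genes of amino acid supply and, with DDIT3, of stress output; other kinases of eIF2 alpha reach ATF4 without ER stress. Splicing of XBP1, cleavage of ATF6 and translation of ATF4 are not seen in counts per gene, so the levels below are those of messages alone.

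EMD knockdown libraries of 3 lines were each set against control libraries of the same line. In C4-2B, a castration-resistant subline of LNCaP, and in 22Rv1, a line derived from a xenograft of a prostate carcinoma, cells grew in RPMI-1640 with serum. DU145, a prostate cancer line from a brain metastasis, grew in DMEM with serum. Per the labels, knockdown cells received siRNA against EMD and control cells a scrambled siRNA, both by lipid transfection, and the mix was replaced by fresh medium after 24 h. Each arm of each line had 3 libraries, 18 in all. The names of the DU145 knockdown libraries carry the prefix shEMD, which goes against the siRNA protocol, and the labels do not settle it. The time to harvest is not given, and nothing says that libraries of an arm came from separate cultures, so p-values measure the spread between these libraries, which may be technical. Line, deposited table and batch label coincide and cannot be told apart, and in bulk RNA fewer cells expressing a gene and less RNA per cell cannot be told apart either.

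EMD itself ran at 6.38 to 10.0 CPM in knockdown and 67.2 to 75.1 CPM in control libraries of C4-2B, 17.5 to 21.2 CPM in knockdown and 60.9 to 69.7 CPM in control libraries of 22Rv1 and 4.61 to 5.01 CPM in knockdown and 40.7 to 47.7 CPM in control libraries of DU145. It fell in every knockdown arm, by 3.07 ± 0.11 on the log2 scale in C4-2B (edgeR adjusted p = 3.37e-14), by 1.73 ± 0.07 in 22Rv1 (4.29e-14) and by 3.21 ± 0.08 in DU145 (1.67e-22). The C4-2B libraries held 14722733 to 25112148 reads, 22Rv1 libraries held 15602874 to 30788078 reads and DU145 libraries held 21024352 to 43311727 reads. Summed over the epithelial markers EPCAM, KRT8, KRT18 and CDH1, the level was 1676 to 1706 CPM in knockdown and 1465 to 1503 CPM in control libraries of C4-2B, 1287 to 1314 CPM in knockdown and 1737 to 1812 CPM in control libraries of 22Rv1 and 1047 to 1077 CPM in knockdown and 2012 to 2129 CPM in control libraries of DU145. These markers did not all move alike. In DU145 EPCAM was higher in knockdown (102 to 113 against 70.1 to 72.9 CPM), while KRT8 (397 to 415 against 1183 to 1253 CPM), KRT18 and CDH1 were lower. In 22Rv1 the arms overlapped for CDH1 (420 to 432 and 399 to 434 CPM) and the others were lower. In C4-2B they overlapped for KRT8 (422 to 451 and 426 to 438 CPM) and the others were higher. Markers of fibroblasts, endothelium and blood summed to at most 22.3 CPM in any library. What part these differences have in the results below was not tested.

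In the promoters of these genes, 2 motifs were searched on both strands of RefSeq windows (GRCh38.p14) that run from 250 bases before to 50 bases after an annotated start. The C/EBP-ATF response element core, TGATGNAA, is bound by dimers of ATF4 and C/EBP proteins, and the ER stress response element, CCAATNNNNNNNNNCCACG, by NF-Y together with ATF6 or XBP1. No member held both motifs, so no matches overlapped. Windows were found for 37 of the 42 members. NUPR1, PSPH, SHMT2, PYCR1 and PDIA3 had none. The C/EBP-ATF core lay in windows of 5 of the 37 members (ASNS, CHAC1, CEBPG, CREB3L2 and HERPUD1), against 1217 of 27305 genes with a window (4.46%). Of the ATF4 targets, 2 of 10 held it, and of the chaperones 0 of 14. The ER stress response element lay in windows of 7 of the 37 members, against 25 of 27305 genes (0.0916%). Of the chaperones 6 of 14 held it (CALR, CANX, CRELD2, HSP90B1, HSPA5 and PDIA6), as did XBP1, and none of the 10 ATF4 targets. A match is a run of letters in a window and not a measured binding site.

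To show these matches in their sequence, the windows of 5 members follow, 1 from each role group that held a match, read 5′ to 3′ on the strand of the gene, with the match in capitals. The matches of CHAC1 and HERPUD1 lie on the opposite strand and so read TTGCATCA, 209 to 202 bases before the start of CHAC1 (chr15:40953221-40953520, plus strand) and 176 to 169 bases before that of HERPUD1 (chr16:56931892-56932191, plus strand). That of ASNS lies 68 to 61 bases before the start (chr7:97872359-97872658, minus strand), and that of HSPA5 66 to 48 bases before it (chr9:125241294-125241593, minus strand). CREB3L2 is shown at the start that carries the match, 16 to 23 bases after it (chr7:137932939-137933238, minus strand).
CHAC1: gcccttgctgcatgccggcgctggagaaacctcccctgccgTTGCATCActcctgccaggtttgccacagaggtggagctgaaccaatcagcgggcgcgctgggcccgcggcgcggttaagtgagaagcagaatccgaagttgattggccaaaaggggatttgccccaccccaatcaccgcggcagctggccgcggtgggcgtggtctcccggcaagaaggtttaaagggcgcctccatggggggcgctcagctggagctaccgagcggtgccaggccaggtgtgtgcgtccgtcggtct
ASNS: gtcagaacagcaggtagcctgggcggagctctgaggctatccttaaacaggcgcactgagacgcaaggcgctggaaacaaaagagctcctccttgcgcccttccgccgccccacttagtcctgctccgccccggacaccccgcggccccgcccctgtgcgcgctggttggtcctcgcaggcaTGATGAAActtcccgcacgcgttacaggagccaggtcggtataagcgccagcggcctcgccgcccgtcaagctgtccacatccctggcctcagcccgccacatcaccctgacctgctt
CREB3L2: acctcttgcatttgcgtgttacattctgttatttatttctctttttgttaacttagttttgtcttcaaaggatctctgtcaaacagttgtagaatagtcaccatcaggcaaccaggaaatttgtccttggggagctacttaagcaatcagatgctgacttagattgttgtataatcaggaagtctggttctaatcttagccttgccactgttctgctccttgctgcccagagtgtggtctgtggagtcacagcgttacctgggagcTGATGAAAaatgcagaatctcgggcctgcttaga
HSPA5: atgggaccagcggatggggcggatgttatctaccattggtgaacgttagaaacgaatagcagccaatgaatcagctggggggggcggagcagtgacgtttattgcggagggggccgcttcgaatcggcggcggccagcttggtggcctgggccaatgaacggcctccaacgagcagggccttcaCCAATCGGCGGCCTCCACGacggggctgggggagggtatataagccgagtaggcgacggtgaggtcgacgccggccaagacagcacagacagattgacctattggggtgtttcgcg
HERPUD1: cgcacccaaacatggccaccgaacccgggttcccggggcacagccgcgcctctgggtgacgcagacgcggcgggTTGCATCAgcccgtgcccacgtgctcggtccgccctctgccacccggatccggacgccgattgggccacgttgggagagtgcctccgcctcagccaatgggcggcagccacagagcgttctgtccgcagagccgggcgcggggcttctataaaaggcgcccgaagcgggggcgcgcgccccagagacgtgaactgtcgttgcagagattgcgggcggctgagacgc

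The ER stress response elements of the chaperones and of XBP1 differed from each other in the 9 bases between the fixed ends, which are in capitals below. They are read along the motif, on the opposite strand of the gene for CALR, CRELD2 and the second site of HSP90B1.
HSPA5: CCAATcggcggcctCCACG
HSP90B1, first site: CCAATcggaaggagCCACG
HSP90B1, second site: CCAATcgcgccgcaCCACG
CALR: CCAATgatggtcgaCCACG
CANX: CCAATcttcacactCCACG
CRELD2: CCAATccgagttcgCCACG
PDIA6: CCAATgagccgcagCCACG
XBP1: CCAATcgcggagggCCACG

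A gene was said to rise, fall or change only at an edgeR adjusted p under 0.05 over all genes tested in the line, a fold change is the log2 of EMD knockdown over control with its standard error, and a level is the TMM-scaled CPM (reads scaled to a common library size) of a library. In C4-2B 35 of the 42 members changed, 17 higher and 18 lower, where 41.7% of all tested genes changed, 19.4% higher and 22.3% lower. In 22Rv1 36 members changed, 16 higher and 20 lower, against 67.8% of all genes, 33.5% higher and 34.3% lower. In DU145 29 members changed, 17 higher and 12 lower, against 47.6% of all genes, 24.1% higher and 23.6% lower. Most members were well expressed, and a change is more readily called at a high count: at 30 CPM and above, 34 of 41 members changed in C4-2B where 56.8% of all genes of that level did, 33 of 38 in 22Rv1 against 78.0%, and 25 of 35 in DU145 against 68.4%. The members' median absolute log2 fold change was 0.24 in C4-2B, 0.44 in 22Rv1 and 0.29 in DU145, and that of all tested genes 0.24 in C4-2B, 0.42 in 22Rv1 and 0.29 in DU145. For all genes at 30 CPM and above it was lower, 0.17 in C4-2B, 0.30 in 22Rv1 and 0.23 in DU145. Among all genes of C4-2B, the share of changes that were higher was 46.6% with TMM scaling and 57.0% with library totals.

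**Figure D1:**
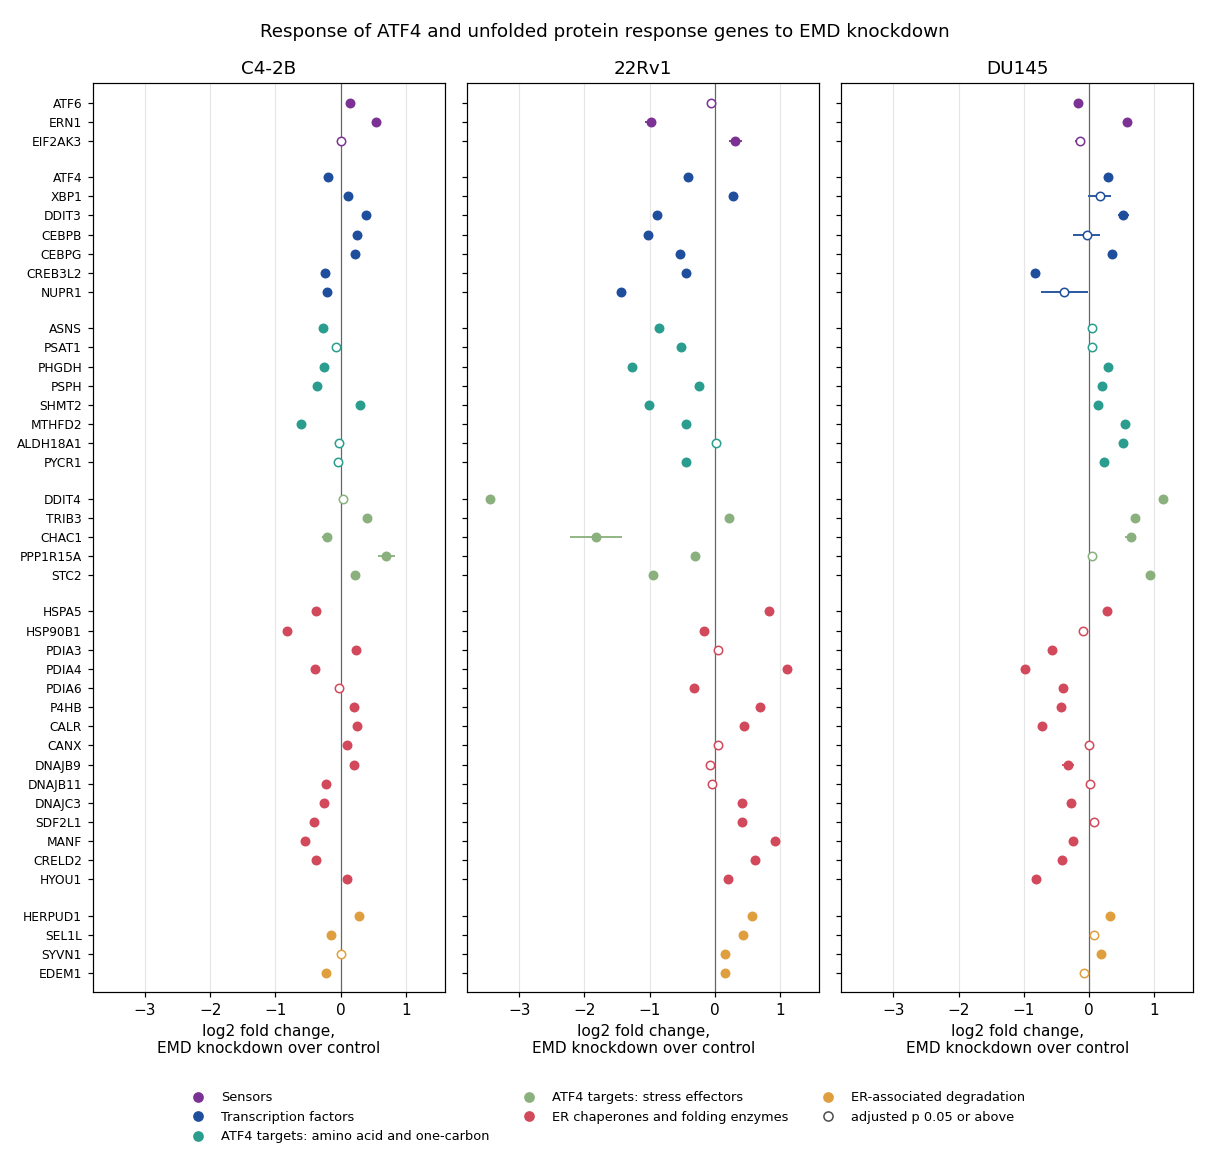
Log2 fold change of EMD knockdown over control (horizontal axis, points with standard error bars, 3 libraries per arm) for the 42 members by role, in C4-2B, 22Rv1 and DU145; open points had an adjusted p of 0.05 or above. ATF4 targets lie mostly left of 0 in 22Rv1, where 11 of 13 fell, and right of 0 in DU145, where 10 of 13 rose, and the chaperones show the converse.

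Among the sensors, ERN1 changed in all 3 lines. In C4-2B, ERN1 had 148, 146 and 175 CPM in the knockdown libraries, against 109, 106 and 107 CPM in the controls. In 22Rv1, ERN1 had 13.9, 15.1 and 14.2 CPM in the knockdown libraries, against 28.99, 26.9 and 29.2 CPM in the controls. In DU145, ERN1 had 21.4, 22.1 and 22.4 CPM in the knockdown libraries, against 13.1, 14.9 and 15.5 CPM in the controls. No knockdown library overlapped a control library in any of the lines, and ERN1 was higher in C4-2B (0.55 ± 0.06, edgeR adjusted p = 2.92e-07), lower in 22Rv1 (-0.98 ± 0.08, edgeR adjusted p = 1.2e-09) and higher in DU145 (0.59 ± 0.07, edgeR adjusted p = 5.44e-08). ATF6 is the sensor that is itself a transcription factor precursor. In C4-2B, ATF6 had 107, 109 and 106 CPM in the knockdown libraries, against 101, 88.2 and 102 CPM in the controls. In DU145, ATF6 had 36.5, 40.2 and 34.8 CPM in the knockdown libraries, against 41.9, 43.0 and 39.7 CPM in the controls. The C4-2B arms did not overlap, those of DU145 did, and the fold changes were 0.14 ± 0.05 (edgeR adjusted p = 0.0326) in C4-2B and -0.16 ± 0.06 (edgeR adjusted p = 0.0235) in DU145. Neither call was stable: that of C4-2B was lost without knockdown library 1, 2 or 3 or control library 2 (adjusted p 0.0512 to 0.297) and with DESeq2 (0.0651), and that of DU145 without knockdown library 1 or 3 or any 1 of the controls (0.0522 to 0.241) and with library totals, no filter or DESeq2 (0.0511 to 0.0554). In 22Rv1 ATF6 had a fold change of -0.05, which did not pass, though it did in limma-trend after cyclic loess (-0.17, adjusted p = 0.018). EIF2AK3, the kinase PERK, passed only in 22Rv1. In 22Rv1, EIF2AK3 had 22.1, 18.7 and 21.3 CPM in the knockdown libraries, against 16.4, 19.5 and 14.8 CPM in the controls. Its arms overlapped (0.32 ± 0.10, edgeR adjusted p = 0.00985), and the call was lost without knockdown library 1 or control library 3 (0.0628 to 0.0652). Its fold changes of 0.01 in C4-2B and -0.14 in DU145 did not pass.

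ATF4 message itself fell in C4-2B and 22Rv1 and rose in DU145. In C4-2B, ATF4 had 703, 657 and 685 CPM in the knockdown libraries, against 811, 748 and 779 CPM in the controls. In 22Rv1, ATF4 had 349.8, 368 and 353 CPM in the knockdown libraries, against 454, 477 and 488 CPM in the controls. In DU145, ATF4 had 312, 326 and 316 CPM in the knockdown libraries, against 265, 263 and 248 CPM in the controls. The arms were separate in each line, with fold changes of -0.19 ± 0.04 (edgeR adjusted p = 0.000215) in C4-2B, -0.41 ± 0.04 (edgeR adjusted p = 3.91e-09) in 22Rv1 and 0.30 ± 0.05 (edgeR adjusted p = 7e-06) in DU145. DDIT3 encodes CHOP, a pro-apoptotic factor induced by ATF4. In C4-2B, DDIT3 had 211, 184 and 179.97 CPM in the knockdown libraries, against 150.5, 139.6 and 149.5 CPM in the controls. In 22Rv1, DDIT3 had 47.4, 48.0 and 48.1 CPM in the knockdown libraries, against 83.6, 89.4 and 92.1 CPM in the controls. In DU145, DDIT3 had 13.5, 15.2 and 13.3 CPM in the knockdown libraries, against 8.44, 9.72 and 10.6 CPM in the controls. Its libraries did not overlap between arms, and it rose in C4-2B (0.39 ± 0.05, edgeR adjusted p = 1.05e-05) and DU145 (0.53 ± 0.09, edgeR adjusted p = 1.01e-05) and fell in 22Rv1 (-0.89 ± 0.05, edgeR adjusted p = 8.03e-12). MARS1, the methionyl-tRNA synthetase gene, shares 27.2% of the exonic bases of DDIT3 on the opposite strand in the GENCODE v29 annotation. Strand-specific counting is not stated, and what part of the DDIT3 counts came from MARS1 was not tested. MARS1 averaged 420 CPM in knockdown and 427 CPM in control libraries of C4-2B. Its means were 241 and 294 CPM in 22Rv1 and 260 and 209 CPM in DU145. These levels exceeded those of DDIT3 in each line. MARS1 had fold changes of -0.02 (edgeR adjusted p = 0.649) in C4-2B, -0.29 (9.81e-07) in 22Rv1 and 0.31 (2.77e-06) in DU145.

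CEBPG, a C/EBP protein that dimerises with ATF4, went the same way as DDIT3 in each line. In C4-2B, CEBPG had 276, 254 and 257 CPM in the knockdown libraries, against 223, 222 and 229 CPM in the controls. In 22Rv1, CEBPG had 114, 111 and 108 CPM in the knockdown libraries, against 158, 155 and 165 CPM in the controls. In DU145, CEBPG had 73.2, 79.7 and 72.4 CPM in the knockdown libraries, against 58.1, 59.4 and 59.2 CPM in the controls. The arms were again separate, at 0.23 ± 0.04 (edgeR adjusted p = 6.71e-05) in C4-2B, -0.53 ± 0.04 (edgeR adjusted p = 6.92e-10) in 22Rv1 and 0.35 ± 0.05 (edgeR adjusted p = 1.98e-06) in DU145. CEBPB, another partner of ATF4, had its largest change in 22Rv1. In C4-2B, CEBPB had 162, 155 and 174 CPM in the knockdown libraries, against 132, 140.5 and 138 CPM in the controls. In 22Rv1, CEBPB had 58.8, 59.0 and 64.6 CPM in the knockdown libraries, against 130.5, 128 and 112 CPM in the controls. In DU145, CEBPB had 47.3, 51.1 and 31.3 CPM in the knockdown libraries, against 41.3, 45.1 and 46.0 CPM in the controls. Knockdown libraries were all higher than controls in C4-2B (0.26 ± 0.05, edgeR adjusted p = 7.47e-05) and all lower in 22Rv1 (-1.02 ± 0.06, edgeR adjusted p = 3.9e-11). The C4-2B call was lost in 1 fit over all 18 libraries (adjusted p = 0.113, with 9.91e-06 to 0.113 over the 12 alternatives). In DU145 knockdown library 3 stood below all others, the fold change of -0.04 ± 0.21 (edgeR adjusted p = 0.911) did not pass, and without that library it was 0.18 (edgeR adjusted p = 0.00513, against 0.00513 to 0.992 over the 12 alternatives).

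XBP1, whose message is cut by IRE1, rose in C4-2B and 22Rv1. In C4-2B, XBP1 had 384, 356 and 372 CPM in the knockdown libraries, against 335, 349 and 347 CPM in the controls. In 22Rv1, XBP1 had 144, 137 and 143 CPM in the knockdown libraries, against 114, 121 and 117 CPM in the controls. In DU145, XBP1 had 62.8, 69.4 and 47.0 CPM in the knockdown libraries, against 49.4, 56.9 and 53.2 CPM in the controls. Arms did not overlap in C4-2B (0.11 ± 0.04, edgeR adjusted p = 0.0258) or in 22Rv1 (0.27 ± 0.04, edgeR adjusted p = 6.24e-06). The C4-2B call was lost when knockdown library 1 or 3 or any 1 of the controls was left out (0.0531 to 0.141), and in 1 fit over all 18 libraries (adjusted p = 0.351). DU145 knockdown library 3 was again the lowest, the fold change of 0.16 ± 0.17 (edgeR adjusted p = 0.53) did not pass, and without that library XBP1 passed (edgeR adjusted p = 1.34e-06, against 1.34e-06 to 0.754 over the 12 alternatives). In GENCODE v29 a pseudogene is named after XBP1, and counting by expectation maximisation can split reads between near-identical copies.

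CREB3L2, an ER-anchored relative of ATF6 that is cut in a similar way, was the only member to fall in all 3 lines. In C4-2B, CREB3L2 had 162, 179 and 175 CPM in the knockdown libraries, against 208, 201 and 202 CPM in the controls. In 22Rv1, CREB3L2 had 40.1, 43.6 and 43.4 CPM in the knockdown libraries, against 62.2, 53.4 and 55.6 CPM in the controls. In DU145, CREB3L2 had 22.1, 20.6 and 24.3 CPM in the knockdown libraries, against 38.9, 41.0 and 39.3 CPM in the controls. Every knockdown library was below every control of its line, at -0.24 ± 0.04 (edgeR adjusted p = 5.18e-05) in C4-2B, -0.44 ± 0.06 (edgeR adjusted p = 4.26e-06) in 22Rv1 and -0.83 ± 0.06 (edgeR adjusted p = 9.23e-12) in DU145. NUPR1 is a small stress-inducible chromatin protein. In C4-2B, NUPR1 had 196, 179 and 198 CPM in the knockdown libraries, against 213, 218 and 231 CPM in the controls. In 22Rv1, NUPR1 had 106, 109.7 and 101 CPM in the knockdown libraries, against 283, 307 and 276 CPM in the controls. It fell in C4-2B (-0.21 ± 0.04, edgeR adjusted p = 0.000417) and in 22Rv1 (-1.45 ± 0.04, edgeR adjusted p = 3.62e-16), with separate arms. DU145 gave only 61 reads of NUPR1 over the knockdown libraries and 73 over the controls, and a difference was not detectable at this depth (adjusted p = 0.435).

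**Figure D2:**
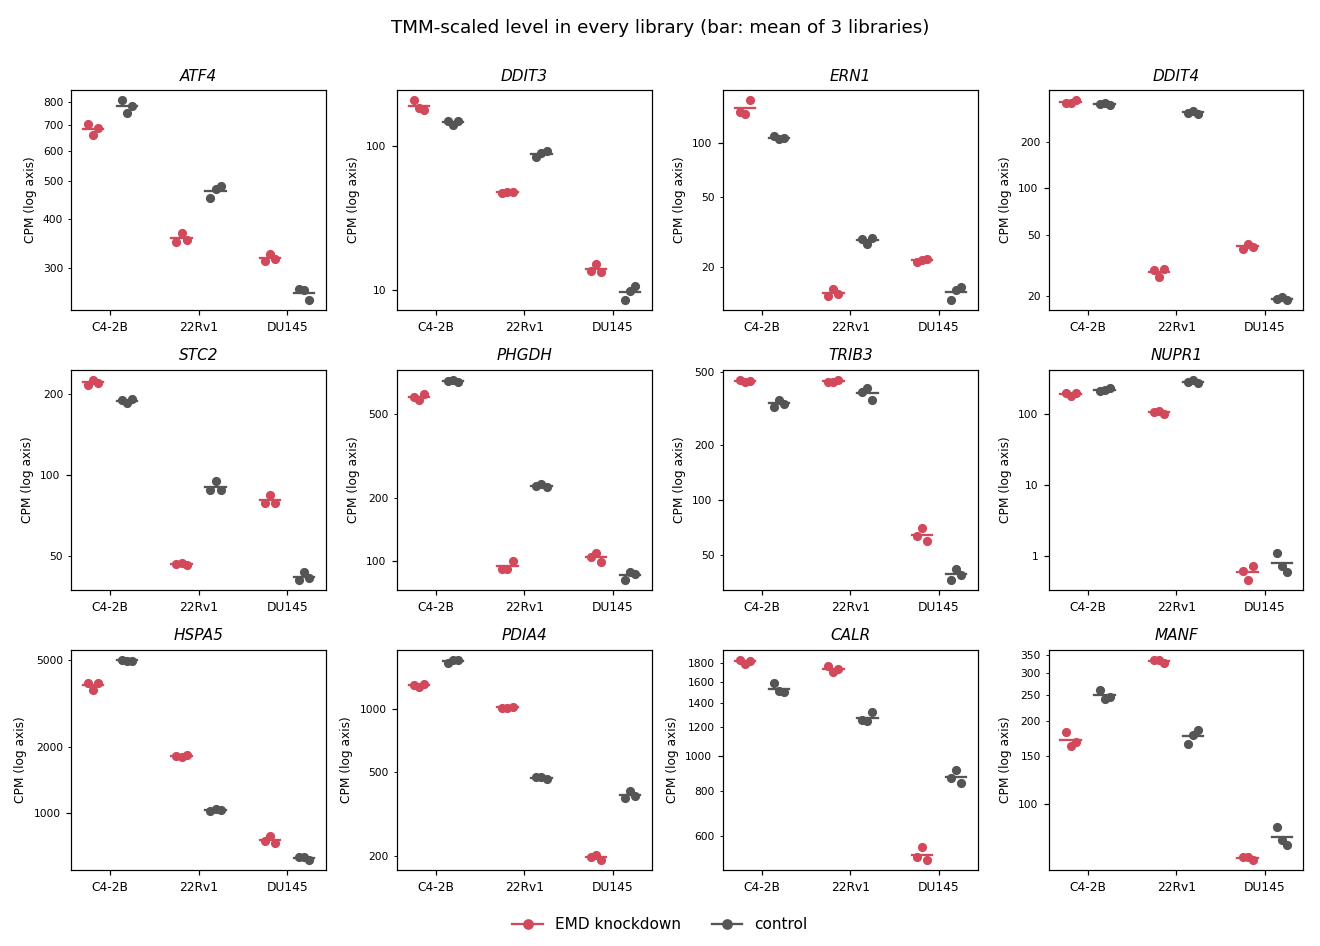
TMM-scaled level in CPM (log axis) of 12 members in each of the 18 libraries; points are libraries, bars the mean of 3, with EMD knockdown left of control in each line. ATF4, STC2 and PHGDH stand lower in the 22Rv1 knockdown libraries and higher in those of DU145, while PDIA4, CALR and MANF stand higher in 22Rv1 and lower in DU145.

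The stress effectors among the ATF4 targets held the widest range. DDIT4 encodes REDD1, an inhibitor of the growth kinase mTORC1. In 22Rv1, DDIT4 had 29.4, 26.4 and 29.7 CPM in the knockdown libraries, against 311, 319.5 and 305 CPM in the controls. In DU145, DDIT4 had 40.5, 43.4 and 41.7 CPM in the knockdown libraries, against 19.1, 19.6 and 18.7 CPM in the controls. It fell in 22Rv1 (-3.45 ± 0.05, edgeR adjusted p = 2.4e-21), the largest change of any member in any line, and rose in DU145 (1.13 ± 0.06, edgeR adjusted p = 3.82e-15), with far separated arms in both. In C4-2B DDIT4 averaged 366 ± 10.6 CPM in knockdown and 355 ± 5.73 CPM in control libraries (SD, n = 3 each), and the fold change of 0.04 ± 0.04 (edgeR adjusted p = 0.398) did not pass, though it did with library totals (0.09, adjusted p = 0.0421). An antisense gene, DDIT4-AS1, covers 41.2% of the exonic bases of DDIT4, and in DU145, the only line in which it was tested, it averaged 4.32 CPM in knockdown and 1.25 CPM in control libraries. STC2 encodes stanniocalcin 2, a secreted glycoprotein. In 22Rv1, STC2 had 46.8, 47.2 and 46.4 CPM in the knockdown libraries, against 87.9, 95.5 and 88.5 CPM in the controls. In DU145, STC2 had 78.6, 84.6 and 78.7 CPM in the knockdown libraries, against 40.9, 43.8 and 41.6 CPM in the controls. The arms did not overlap, and STC2 fell in 22Rv1 (-0.95 ± 0.05, edgeR adjusted p = 2.14e-12) and rose in DU145 (0.93 ± 0.05, edgeR adjusted p = 2.22e-14). It also rose in C4-2B (0.22 ± 0.04, edgeR adjusted p = 4.86e-05).

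CHAC1, which degrades glutathione, followed STC2 in 22Rv1 and DU145, but at low counts in 22Rv1. In 22Rv1, CHAC1 had 1.38, 0.734 and 3.24 CPM in the knockdown libraries, against 5.89, 7.12 and 5.83 CPM in the controls. In DU145, CHAC1 had 11.2, 13.0 and 12.3 CPM in the knockdown libraries, against 7.39, 8.29 and 7.59 CPM in the controls. In 22Rv1 it fell (-1.82 ± 0.40, edgeR adjusted p = 0.00427) on 101 reads over the knockdown libraries and 471 over the controls, and in DU145 it rose (0.64 ± 0.09, edgeR adjusted p = 6.88e-07). Over all 22Rv1 genes at 2 to 10 CPM the median log2 fold change was -0.33. Its fall in C4-2B (-0.21 ± 0.07, edgeR adjusted p = 0.015) was lost without control library 3 (adjusted p = 0.112, with 0.0032 to 0.21 over the 12 alternatives). TRIB3, a pseudokinase that binds AKT and feeds back on ATF4, was 1 of 2 members to rise in all 3 lines, the other being HERPUD1. In C4-2B, TRIB3 had 452, 440.4 and 447 CPM in the knockdown libraries, against 323, 353 and 336 CPM in the controls. In 22Rv1, TRIB3 had 442, 443 and 455 CPM in the knockdown libraries, against 390.0, 409.6 and 351 CPM in the controls. In DU145, TRIB3 had 63.4, 70.2 and 59.98 CPM in the knockdown libraries, against 36.7, 42.3 and 39.3 CPM in the controls. No arms overlapped, with rises of 0.40 ± 0.04 (edgeR adjusted p = 3.7e-09) in C4-2B, 0.22 ± 0.05 (edgeR adjusted p = 0.000515) in 22Rv1 and 0.70 ± 0.06 (edgeR adjusted p = 2.93e-09) in DU145. The 22Rv1 rise was lost in limma-trend after cyclic loess (adjusted p = 0.0824, with 5.77e-08 to 0.0824 over the 12 alternatives). PPP1R15A encodes GADD34, which brings a phosphatase to eIF2 alpha. In C4-2B, PPP1R15A had 14.1, 14.5 and 15.7 CPM in the knockdown libraries, against 9.72, 9.27 and 8.33 CPM in the controls. Its C4-2B arms were apart (0.70 ± 0.13, edgeR adjusted p = 7.54e-05). In 22Rv1 it fell (-0.30 ± 0.06, edgeR adjusted p = 0.000185), and in DU145 its fold change of 0.04 did not pass.

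Of the 8 targets for amino acid and one-carbon synthesis, 1 rose and 4 fell in C4-2B, 7 fell in 22Rv1 and 6 rose in DU145, and no others passed. Serine synthesis runs through PHGDH, PSAT1 and PSPH, and SHMT2 and MTHFD2 carry its carbon into the mitochondrial folate cycle. PHGDH, the first of these enzymes, fell most in 22Rv1. In 22Rv1, PHGDH had 91.7, 92.3 and 100.4 CPM in the knockdown libraries, against 229, 232 and 226 CPM in the controls. The arms were far apart (-1.27 ± 0.04, edgeR adjusted p = 9.4e-16), while PHGDH also fell in C4-2B (-0.26 ± 0.04, edgeR adjusted p = 2.31e-06) and rose in DU145 (0.28 ± 0.05, edgeR adjusted p = 3.58e-05). PSPH, the last enzyme, fell in C4-2B. In C4-2B, PSPH had 69.4, 68.5 and 69.0 CPM in the knockdown libraries, against 92.2, 84.3 and 89.3 CPM in the controls. Its arms did not overlap (-0.36 ± 0.05, edgeR adjusted p = 4.52e-06). It also fell in 22Rv1 (-0.25 ± 0.07, edgeR adjusted p = 0.00242) and rose in DU145 (0.19 ± 0.06, edgeR adjusted p = 0.00538), where the call was lost without knockdown library 2 (adjusted p = 0.122, with 0.000436 to 0.122 over the 12 alternatives). PSAT1 fell in 22Rv1 (-0.51 ± 0.04, edgeR adjusted p = 1.71e-10), and its fold changes of -0.08 in C4-2B and 0.04 in DU145 did not pass, though that of C4-2B did without knockdown library 1 (adjusted p = 0.0102, with 0.0102 to 0.599 over the 12 alternatives) and that of DU145 with library totals (adjusted p = 0.0175).

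SHMT2 and MTHFD2, neighbouring steps, parted in C4-2B. In 22Rv1, SHMT2 had 389.7, 373 and 390.2 CPM in the knockdown libraries, against 767, 787 and 769.8 CPM in the controls. SHMT2 fell there with separate arms (-1.01 ± 0.03, edgeR adjusted p = 7.87e-16) and rose in C4-2B (0.30 ± 0.04, edgeR adjusted p = 1.66e-07) and in DU145 (0.14 ± 0.05, edgeR adjusted p = 0.0184). The DU145 call was lost without knockdown library 2 or control library 1 (0.0608 to 0.273) and with no filter on low counts (0.0735). In C4-2B, MTHFD2 had 284, 257 and 255 CPM in the knockdown libraries, against 409.9, 397 and 401 CPM in the controls. In DU145, MTHFD2 had 325, 349.7 and 309 CPM in the knockdown libraries, against 222, 228 and 224 CPM in the controls. Here the knockdown libraries of C4-2B lay below the controls (-0.60 ± 0.04, edgeR adjusted p = 8.95e-12) and those of DU145 above (0.54 ± 0.05, edgeR adjusted p = 5.64e-10), and MTHFD2 fell in 22Rv1 too (-0.44 ± 0.04, edgeR adjusted p = 1.33e-09). ASNS makes asparagine from aspartate. In 22Rv1, ASNS had 130.3, 132 and 134 CPM in the knockdown libraries, against 237, 243 and 239 CPM in the controls. It fell in 22Rv1 with separate arms (-0.86 ± 0.04, edgeR adjusted p = 4.11e-14) and in C4-2B (-0.28 ± 0.04, edgeR adjusted p = 1.42e-06), and its fold change of 0.04 in DU145 did not pass. An unnamed gene, AC079781.5, shares 44.6% of the exonic bases of ASNS on the same strand, and its own level fell in 22Rv1 (-0.32) and in DU145 (-1.02). On the opposite strand, SLC4A5 exons cover 27.2% of the exonic bases of MTHFD2, with a mean of at most 1.25 CPM in any arm. The proline synthesis genes ALDH18A1 and PYCR1 rose in DU145, with 0.51 ± 0.05 (edgeR adjusted p = 1.91e-09) for ALDH18A1 and 0.23 ± 0.05 (edgeR adjusted p = 0.000464) for PYCR1, PYCR1 fell in 22Rv1 (-0.44 ± 0.04, edgeR adjusted p = 2.48e-09), where ALDH18A1 did not pass (0.02), and neither passed in C4-2B (-0.02 for ALDH18A1 and -0.03 for PYCR1). Pseudogenes named after ASNS, ATF4, MTHFD2, PDIA3, PSAT1 and PSPH in GENCODE v29 leave their counts uncertain in the same way as those of XBP1.

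The median log2 fold change of the 13 ATF4 targets was -0.03 in C4-2B, -0.51 in 22Rv1 and 0.28 in DU145, and the median over all tested genes was 0.013 in C4-2B, -0.0038 in 22Rv1 and 0.012 in DU145. With limma-trend after cyclic loess 12 of the 13 fell in 22Rv1 and none rose, and with library totals 11 of the 13 rose in DU145. Library totals moved the median over all tested genes of DU145 from 0.012 to 0.060.

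HSPA5 encodes BiP, a major ER chaperone and the one that holds the sensors inactive. In C4-2B, HSPA5 had 3937, 3649.6 and 3945 CPM in the knockdown libraries, against 5031, 4975 and 4958 CPM in the controls. In 22Rv1, HSPA5 had 1829, 1799.9 and 1846 CPM in the knockdown libraries, against 1020.1, 1043 and 1028 CPM in the controls. In DU145, HSPA5 had 742, 786 and 729 CPM in the knockdown libraries, against 633, 629 and 611 CPM in the controls. Arms were separate in every line: HSPA5 fell in C4-2B (-0.38 ± 0.04, edgeR adjusted p = 5.92e-09) and rose in 22Rv1 (0.82 ± 0.03, edgeR adjusted p = 2.23e-15) and in DU145 (0.27 ± 0.05, edgeR adjusted p = 3.32e-05), where it was the only chaperone to do so. HSP90B1 encodes the HSP90 protein of the ER. In C4-2B, HSP90B1 had 1949.9, 1838 and 1882 CPM in the knockdown libraries, against 3384, 3254 and 3351 CPM in the controls. Its arms lay apart (-0.82 ± 0.04, edgeR adjusted p = 1.05e-15), the largest change of a member in C4-2B. It fell slightly in 22Rv1 (-0.16 ± 0.03, edgeR adjusted p = 3.11e-05), and its fold change of -0.09 in DU145 did not pass, though it did with a replicate block or in limma-trend after cyclic loess (0.0266 to 0.0432). HYOU1 encodes a large relative of HSP70 that releases nucleotide from BiP. In DU145, HYOU1 had 162, 176 and 166 CPM in the knockdown libraries, against 287, 302 and 292 CPM in the controls. All knockdown values were below the controls (-0.81 ± 0.05, edgeR adjusted p = 7.47e-14). Small rises of HYOU1 in C4-2B (0.09) and 22Rv1 (0.20) passed, the first being lost without knockdown library 3 or any 1 of the controls (0.0651 to 0.161) and the second in limma-trend after cyclic loess (adjusted p = 0.0783, with 6.68e-07 to 0.0783 over the 12 alternatives).

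Disulfide isomerases form and rearrange disulfide bonds in the ER. PDIA4 had the largest chaperone changes in 22Rv1 and in DU145. In C4-2B, PDIA4 had 1299, 1268 and 1306 CPM in the knockdown libraries, against 1655, 1709 and 1705 CPM in the controls. In 22Rv1, PDIA4 had 1010.0, 1005 and 1021 CPM in the knockdown libraries, against 471, 472 and 465 CPM in the controls. In DU145, PDIA4 had 197, 202 and 191 CPM in the knockdown libraries, against 377, 405 and 383 CPM in the controls. It fell in C4-2B (-0.39 ± 0.03, edgeR adjusted p = 1.09e-09), rose in 22Rv1 (1.11 ± 0.03, edgeR adjusted p = 6.38e-17) and fell in DU145 (-0.98 ± 0.05, edgeR adjusted p = 1.18e-15), with no overlap in any line. PDIA3, which works with the lectin chaperones, fell in DU145. In DU145, PDIA3 had 329.8, 344 and 314 CPM in the knockdown libraries, against 498, 488 and 478 CPM in the controls. The DU145 arms did not overlap (-0.57 ± 0.05, edgeR adjusted p = 1.23e-10), while PDIA3 rose in C4-2B (0.24 ± 0.04, edgeR adjusted p = 4.64e-06) and its fold change of 0.05 in 22Rv1 did not pass. P4HB, the founding isomerase, rose in C4-2B (0.21 ± 0.03, edgeR adjusted p = 1.81e-05) and 22Rv1 (0.69 ± 0.03, edgeR adjusted p = 2.06e-13) and fell in DU145 (-0.44 ± 0.05, edgeR adjusted p = 1.94e-08). PDIA6 fell in 22Rv1 (-0.32 ± 0.03, edgeR adjusted p = 2.6e-08) and DU145 (-0.41 ± 0.05, edgeR adjusted p = 5.18e-08) and did not pass in C4-2B (-0.03). Opposite to PDIA6, ATP6V1C2 exons cover 25.2% of its exonic bases, and ATP6V1C2 averaged 22.1 CPM in knockdown and 27.2 CPM in control libraries of 22Rv1.

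CALR and CANX hold newly made glycoproteins by their sugars. In DU145, CALR had 525, 557 and 514 CPM in the knockdown libraries, against 865, 913 and 842 CPM in the controls. CALR fell in DU145 with separate arms (-0.72 ± 0.05, edgeR adjusted p = 2.2e-12) and rose in C4-2B (0.25 ± 0.04, edgeR adjusted p = 2.76e-06) and 22Rv1 (0.45 ± 0.03, edgeR adjusted p = 8.11e-11). CANX had fold changes of 0.10 in C4-2B, 0.04 in 22Rv1 and 0.0042 in DU145, of which only the first passed (edgeR adjusted p = 0.0223), and that call was lost without knockdown library 3, control library 2 or control library 3 (0.0853 to 0.149). MANF is a small secreted protein that binds BiP. In C4-2B, MANF had 183, 162 and 168 CPM in the knockdown libraries, against 261, 242 and 245 CPM in the controls. In 22Rv1, MANF had 336, 334 and 327 CPM in the knockdown libraries, against 166, 178 and 186 CPM in the controls. It fell in C4-2B (-0.54 ± 0.05, edgeR adjusted p = 4.51e-10) and rose in 22Rv1 (0.91 ± 0.04, edgeR adjusted p = 9.54e-14), both without overlap, and fell in DU145 (-0.25 ± 0.05, edgeR adjusted p = 0.000385). CRELD2 and SDF2L1, other ER-resident proteins induced by ER stress, fell together in C4-2B. In C4-2B, CRELD2 had 124, 106 and 120.4 CPM in the knockdown libraries, against 146, 153 and 154 CPM in the controls. In C4-2B, SDF2L1 had 118, 108 and 126 CPM in the knockdown libraries, against 152, 163 and 151 CPM in the controls. No arms overlapped for CRELD2 (-0.38 ± 0.05, edgeR adjusted p = 1.58e-06) or SDF2L1 (-0.40 ± 0.05, edgeR adjusted p = 6.19e-07). In 22Rv1 both rose (0.61 ± 0.04, edgeR adjusted p = 2.07e-11 for CRELD2 and 0.42 ± 0.05, edgeR adjusted p = 2.86e-07 for SDF2L1), and in DU145 CRELD2 fell (-0.41 ± 0.06, edgeR adjusted p = 8.47e-07) while SDF2L1 did not pass (0.08).

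J-domain proteins stimulate the ATPase of BiP. Of these, DNAJC3, which also restrains PERK, fell in C4-2B (-0.26 ± 0.04, edgeR adjusted p = 2.14e-05) and DU145 (-0.28 ± 0.05, edgeR adjusted p = 7.83e-05) and rose in 22Rv1 (0.42 ± 0.04, edgeR adjusted p = 2.76e-08). DNAJB11 fell in C4-2B (-0.23 ± 0.04, edgeR adjusted p = 9.32e-05), with -0.05 in 22Rv1 and 0.02 in DU145, neither of which passed, though that of 22Rv1 did with library totals or in limma-trend after cyclic loess (-0.19 to -0.13, adjusted p 0.000644 to 0.0112). DNAJB9, an XBP1 target that represses IRE1, rose in C4-2B (0.20 ± 0.04, edgeR adjusted p = 0.000874) and fell in DU145 (-0.32 ± 0.09, edgeR adjusted p = 0.00515), where the call was lost without knockdown library 1 or 3 (0.0575 to 0.0705). It had -0.07 in 22Rv1, which did not pass.

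Over the 15 chaperones and folding enzymes the median log2 fold change was -0.23 in C4-2B, 0.42 in 22Rv1 and -0.32 in DU145. In 22Rv1 the fold change of all genes moved with level: the median over all tested genes was -0.33 at 2 to 10 CPM and 0.13 at 30 to 100 CPM and 0.15 at 100 CPM and above, the range of most chaperones. With limma-trend after cyclic loess, which takes out such a trend, 8 chaperones rose and 5 fell in 22Rv1, in place of 9 and 2, with ALDH18A1 of the ATF4 targets (-0.13, adjusted p = 0.0106), PDIA3 (-0.07, 0.0348) and CANX (-0.07, 0.0414) then below 0. In DU145 2 chaperones rose, in place of 1, with library totals and also without knockdown library 3, SDF2L1 being the added one (adjusted p 0.0408 with library totals and 0.0469 without the library).

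Of the genes of ER-associated degradation, all 4 rose in 22Rv1, where 33.5% of all tested genes rose. Among these calls, 2 (SYVN1 and EDEM1) were lost under 6 of the 12 alternatives. The fold changes of SYVN1 and EDEM1 there lay near 0.13, the median over all 22Rv1 genes at their level of 30 to 100 CPM. HERPUD1, which gathers the retrotranslocation complex, rose in C4-2B (0.29 ± 0.04, edgeR adjusted p = 3.32e-06), 22Rv1 (0.56 ± 0.05, edgeR adjusted p = 2.78e-09) and DU145 (0.32 ± 0.06, edgeR adjusted p = 3.91e-05). SEL1L and SYVN1 form the HRD1 ubiquitin ligase complex. SEL1L fell in C4-2B (-0.15 ± 0.04, edgeR adjusted p = 0.00192) and rose in 22Rv1 (0.43 ± 0.04, edgeR adjusted p = 1.03e-08), and its DU145 value of 0.08 did not pass, but did without knockdown library 3 (adjusted p = 0.0303) and with library totals, limma-trend after cyclic loess or 1 fit over all 18 libraries (0.00285 to 0.0364, with 0.00285 to 0.591 over the 12 alternatives). SYVN1 rose in 22Rv1 (0.16 ± 0.06, edgeR adjusted p = 0.0215) and DU145 (0.18 ± 0.06, edgeR adjusted p = 0.0107) and did not pass in C4-2B (-0.0027). Those SYVN1 calls were lost without knockdown library 2 or 3 or control library 3 in 22Rv1 (0.0563 to 0.160) and without control library 1 in DU145 (0.0701) or with DESeq2 there (0.0711). With library totals, limma-trend after cyclic loess or 1 fit over all 18 libraries, SYVN1 had 0.03 to 0.11 in 22Rv1 and did not pass (0.0948 to 0.641). EDEM1, a lectin that hands glycoproteins to degradation, fell in C4-2B (-0.23 ± 0.04, edgeR adjusted p = 6.79e-05) and rose in 22Rv1 (0.15 ± 0.05, edgeR adjusted p = 0.0183), the rise being lost without knockdown library 1 or 3 or control library 2 (0.0605 to 0.0726). EDEM1 also did not pass in 22Rv1 with library totals, limma-trend after cyclic loess or 1 fit over all 18 libraries, at 0.05 to 0.11 (0.0713 to 0.471). It did not pass in DU145 (-0.08).

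The effects of the lines were then compared directly, as the difference of their knockdown effects in 1 fit over the 18 libraries. Between 22Rv1 and DU145, 35 of the 42 members differed, 15 with the higher effect in 22Rv1 and 20 with the lower, where 55.6% of all tested genes differed. In 12 members a fall in 22Rv1 met a rise in DU145, 8 of them ATF4 targets, and in 7 a rise in 22Rv1 met a fall in DU145, all of them chaperones or folding enzymes. Of these calls, the rises of SHMT2 and PSPH in DU145 and of HYOU1 in 22Rv1 were each lost under at least 1 alternative. The difference passed for each of these 19 members, which adds no support, since they were picked for opposite calls in the same libraries. Over all genes tested in both lines 20.2% had opposite calls, 9.6% lower in 22Rv1 and higher in DU145 and 10.6% the reverse. At 30 CPM and above in both lines the share was 25.3%, and 16 of 35 members had opposite calls. DDIT4 had the largest difference, 22Rv1 less DU145, at -4.64 ± 0.07 (edgeR adjusted p = 4.67e-32). CHAC1 followed at -2.52 ± 0.29 (edgeR adjusted p = 4.03e-07), PDIA4 at 2.03 ± 0.05 (edgeR adjusted p = 8.01e-26) and STC2 at -1.94 ± 0.06 (edgeR adjusted p = 2.5e-22). ERN1 differed by -1.63 ± 0.11 (edgeR adjusted p = 1.04e-14) and PHGDH by -1.62 ± 0.06 (edgeR adjusted p = 5.79e-21).

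**Figure D3:**
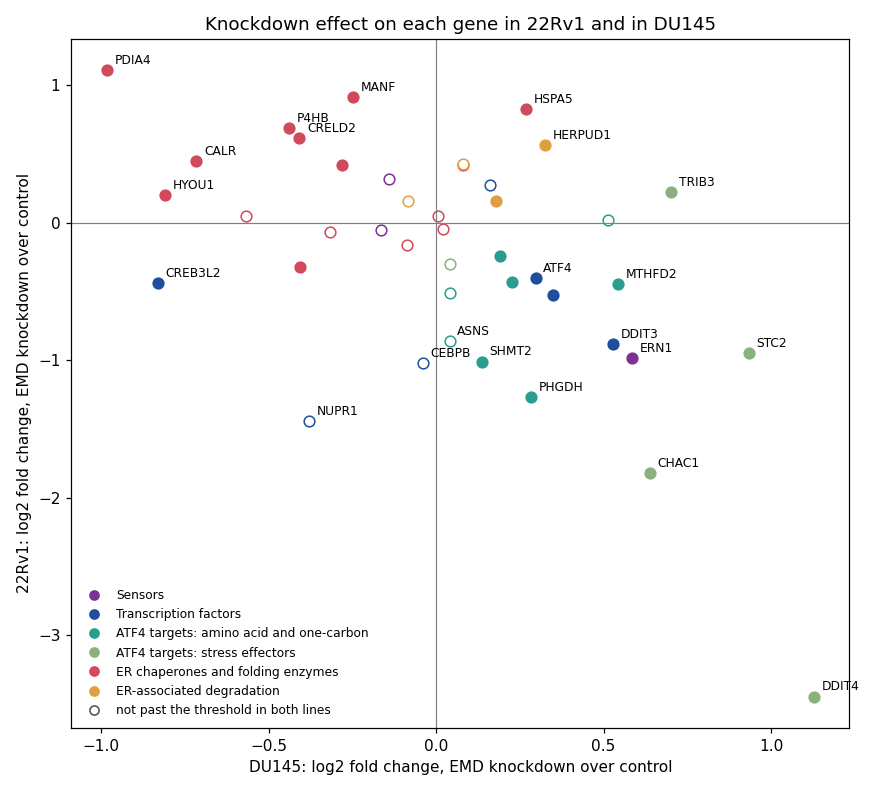
Knockdown effect on each of the 42 members (log2 fold change of EMD knockdown over control) in 22Rv1 (vertical axis) and in DU145 (horizontal axis), coloured by role; filled points passed the threshold in both lines. The lower right holds 12 such members, among them DDIT4, CHAC1, STC2 and PHGDH, and the upper left 7, all chaperones or folding enzymes.

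For C4-2B less 22Rv1, 34 members differed, 21 upward and 13 downward, where 56.1% of all genes did, and 15 of them had opposite calls in the lines, against 18.7% of all genes tested in both. They were lower in C4-2B and higher in 22Rv1 for 8 members (11.3% of genes) and the reverse for 7 (7.39%). At 30 CPM and above these were 13 of 37 members and 25.6% of genes. ERN1 differed by 1.58 ± 0.10 (edgeR adjusted p = 2.61e-15), SHMT2 by 1.36 ± 0.05 (edgeR adjusted p = 3.37e-21), CEBPB by 1.33 ± 0.18 (edgeR adjusted p = 2.38e-05) and DDIT3 by 1.32 ± 0.08 (edgeR adjusted p = 6.46e-15). Below 0 were PDIA4 at -1.45 ± 0.05 (edgeR adjusted p = 3.03e-22) and MANF at -1.41 ± 0.07 (edgeR adjusted p = 4.87e-18), while the chaperone genes PDIA6, DNAJB9 and PDIA3 passed above 0. For C4-2B less DU145, 31 members differed, 11 upward and 20 downward, where 45.7% of all genes did, and 12 had opposite calls, against 14.7% of all genes tested in both. They were lower in C4-2B and higher in DU145 for 6 members (8.23% of genes) and the reverse for 6 (6.47%). At 30 CPM and above these were 10 of 34 members and 21.2% of genes. The largest differences with opposite calls were those of MTHFD2 at -1.16 ± 0.06 (edgeR adjusted p = 3.48e-17), CALR at 0.95 ± 0.05 (edgeR adjusted p = 2.51e-16) and HYOU1 at 0.89 ± 0.05 (edgeR adjusted p = 4.79e-16). CHAC1 differed by -0.86 ± 0.20 (edgeR adjusted p = 0.00135), PDIA3 by 0.79 ± 0.05 (edgeR adjusted p = 2.09e-15) and HSPA5 by -0.66 ± 0.05 (edgeR adjusted p = 8.78e-14).

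The control libraries of the lines stood at different levels of the members, on 1 TMM scale over the 18 libraries. C4-2B controls held the highest mean of the 3 lines for 38 of the 42 members, all 15 chaperones among them, and 22Rv1 controls for the other 4 (NUPR1, SHMT2, TRIB3 and PPP1R15A). The same share over all genes was not counted, so whether this is particular to the members was not tested. HSPA5 averaged 4923 ± 33.3 in C4-2B, 1029 ± 6.75 in 22Rv1 and 675 ± 12.3 CPM in DU145 controls (SD, n = 3 each). DDIT4 averaged 351 ± 5.73 in C4-2B, 312 ± 3.77 in 22Rv1 and 20.7 ± 0.635 CPM in DU145 controls. PPP1R15A was lowest in C4-2B, at 8.99 ± 0.696 CPM, and its levels in 22Rv1 (52.8 ± 2.88) and DU145 (52.7 ± 2.52) did not differ beyond their spread. These levels carry the difference of table and batch as well as that of line.

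Genes of the same pathways outside the 42 were read from lists of further ATF4 targets, cytosolic aminoacyl-tRNA synthetases, eIF2 and its kinases, ER translocation and traffic, and other folding and degradation genes. Of 18 further ATF4 targets 8 rose and 7 fell in C4-2B. In 22Rv1 4 of the 17 tested rose and 12 fell, and in DU145 10 of the 17 tested rose and 4 fell. Over all tested genes 19.4% rose and 22.3% fell in C4-2B, 33.5% and 34.3% in 22Rv1, and 24.1% and 23.6% in DU145. GDF15, a secreted stress cytokine, rose in C4-2B. In C4-2B, GDF15 had 1726, 1594 and 1676 CPM in the knockdown libraries, against 601, 636 and 624 CPM in the controls. Its arms did not overlap (1.42 ± 0.04, edgeR adjusted p = 1.4e-19). In DU145 GDF15 gave 18, 11 and 11 reads in the knockdown libraries and 0, 4 and 1 in the controls (2.88 ± 0.69, edgeR adjusted p = 0.000959). JDP2, a repressor that binds AP-1 sites, fell in C4-2B (-0.79 ± 0.09, edgeR adjusted p = 5.27e-08), 22Rv1 (-1.62 ± 0.12, edgeR adjusted p = 2.17e-10) and DU145 (-1.12 ± 0.07, edgeR adjusted p = 4.2e-13). FGF21, a secreted metabolic hormone, fell in C4-2B (-0.74 ± 0.12, edgeR adjusted p = 1.89e-05).

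In 22Rv1 the strongest of the further ATF4 targets went opposite ways. In 22Rv1, ATF5 had 54.9, 56.5 and 49.5 CPM in the knockdown libraries, against 11.5, 11.1 and 11.8 CPM in the controls. ATF5, a relative of ATF4, rose with far separated arms (2.22 ± 0.07, edgeR adjusted p = 1e-15). In 22Rv1, KLHL24 had 29.9, 28.8 and 29.6 CPM in the knockdown libraries, against 116, 102 and 107 CPM in the controls. KLHL24, a ubiquitin ligase adaptor, fell (-1.88 ± 0.06, edgeR adjusted p = 3.62e-16), and its arms did not overlap either. In DU145, SLC7A11 had 130.0, 135 and 140.1 CPM in the knockdown libraries, against 59.5, 65.5 and 64.7 CPM in the controls. SLC7A11, the cystine transporter, rose in DU145 (1.09 ± 0.05, edgeR adjusted p = 4.1e-16).

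Of the 12 aminoacyl-tRNA synthetases, which charge tRNAs and include many ATF4 targets, 4 rose and 5 fell in C4-2B, 3 rose and 8 fell in 22Rv1, and 8 rose and 2 fell in DU145. Of all tested genes, 19.4% rose and 22.3% fell in C4-2B, 33.5% and 34.3% in 22Rv1, and 24.1% and 23.6% in DU145. At 30 CPM and above, 56.8% of all genes changed in C4-2B, 78.0% in 22Rv1 and 68.4% in DU145. The alanyl enzyme AARS1 fell in C4-2B (-0.25 ± 0.03, edgeR adjusted p = 1.61e-06) and 22Rv1 (-0.68 ± 0.03, edgeR adjusted p = 2.24e-13). The cysteinyl enzyme CARS1 fell in 22Rv1 (-0.58 ± 0.05, edgeR adjusted p = 2.12e-09) and rose in DU145 (0.55 ± 0.05, edgeR adjusted p = 7.4e-10), as did the tyrosyl enzyme YARS1 (-0.52 ± 0.04, edgeR adjusted p = 2.56e-10 in 22Rv1 and 0.42 ± 0.05, edgeR adjusted p = 2.89e-08 in DU145). The glycyl enzyme GARS1 fell in C4-2B (-0.28 ± 0.04, edgeR adjusted p = 1.06e-06) and rose in DU145 (0.44 ± 0.05, edgeR adjusted p = 2.47e-08), and the asparaginyl enzyme NARS1 fell in C4-2B (-0.27 ± 0.04, edgeR adjusted p = 1.05e-06). A list of 12 genes, which holds eIF2, 3 of its kinases, eIF2B and the eIF2 phosphatase subunit PPP1R15B, gave 1 rise and 3 falls in C4-2B, 6 rises and 4 falls in 22Rv1 and 5 rises and 3 falls in DU145. The 1 rise in C4-2B was that of PPP1R15B (0.16 ± 0.04, edgeR adjusted p = 0.00409). EIF2S1, the eIF2 alpha subunit that the kinases phosphorylate, fell in C4-2B (-0.22 ± 0.05, edgeR adjusted p = 0.000381) and rose in 22Rv1 (0.72 ± 0.04, edgeR adjusted p = 3.26e-12). EIF2S2, the beta subunit, fell in C4-2B (-0.45 ± 0.04, edgeR adjusted p = 7.62e-09), and the gamma subunit EIF2S3 fell in DU145 (-0.48 ± 0.05, edgeR adjusted p = 2.27e-09). The eIF2B gene EIF2B3 also fell in C4-2B (-0.34 ± 0.11, edgeR adjusted p = 0.0167). EIF2AK4, the kinase GCN2 that senses uncharged tRNA, fell in DU145 (-0.52 ± 0.05, edgeR adjusted p = 1.02e-09).

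Among 22 genes of translocation and secretory traffic, 3 rose and 7 fell in C4-2B, 12 rose and 3 fell in 22Rv1, and 7 rose and 5 fell in DU145. The shares over all tested genes were 19.4% and 22.3% in C4-2B, 33.5% and 34.3% in 22Rv1, and 24.1% and 23.6% in DU145. Their median log2 fold change in 22Rv1 was 0.20. Over all 22Rv1 genes it was 0.13 at 30 to 100 CPM and 0.15 at 100 CPM and above. KDELR3, which returns escaped chaperones to the ER, fell in C4-2B (-0.77 ± 0.07, edgeR adjusted p = 2.48e-08). SRPRB and SRPRA are the subunits of the receptor for the signal recognition particle. SRPRB rose in 22Rv1 (0.87 ± 0.04, edgeR adjusted p = 3.3e-13) and SRPRA fell in DU145 (-1.19 ± 0.05, edgeR adjusted p = 3.49e-17). SSR3 and SSR2, subunits of the translocon-associated complex, went opposite ways in DU145 (-1.19 ± 0.05, edgeR adjusted p = 5.81e-17 for SSR3 and 0.56 ± 0.05, edgeR adjusted p = 1.61e-10 for SSR2). Other folding and degradation genes, 24 in number, were divided in every line, with 8 higher and 7 lower in C4-2B, 11 and 9 in 22Rv1, and 8 and 7 in DU145. In 22Rv1, ERO1B had 14.2, 12.4 and 12.2 CPM in the knockdown libraries, against 55.7, 57.7 and 57.0 CPM in the controls. ERO1B, an oxidase that drives disulfide formation, fell with separate arms (-2.12 ± 0.07, edgeR adjusted p = 1.36e-15). FKBP14, a prolyl isomerase of the ER, fell in C4-2B (-0.56 ± 0.09, edgeR adjusted p = 6.98e-06) and 22Rv1 (-1.07 ± 0.07, edgeR adjusted p = 4.91e-11) and rose in DU145 (0.65 ± 0.06, edgeR adjusted p = 1.85e-10). DNAJC10, a disulfide reductase, rose in C4-2B (0.54 ± 0.04, edgeR adjusted p = 8.53e-12), and DERL1, a retrotranslocation channel component, rose in DU145 (0.74 ± 0.05, edgeR adjusted p = 2.9e-12).

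**Figure D4:**
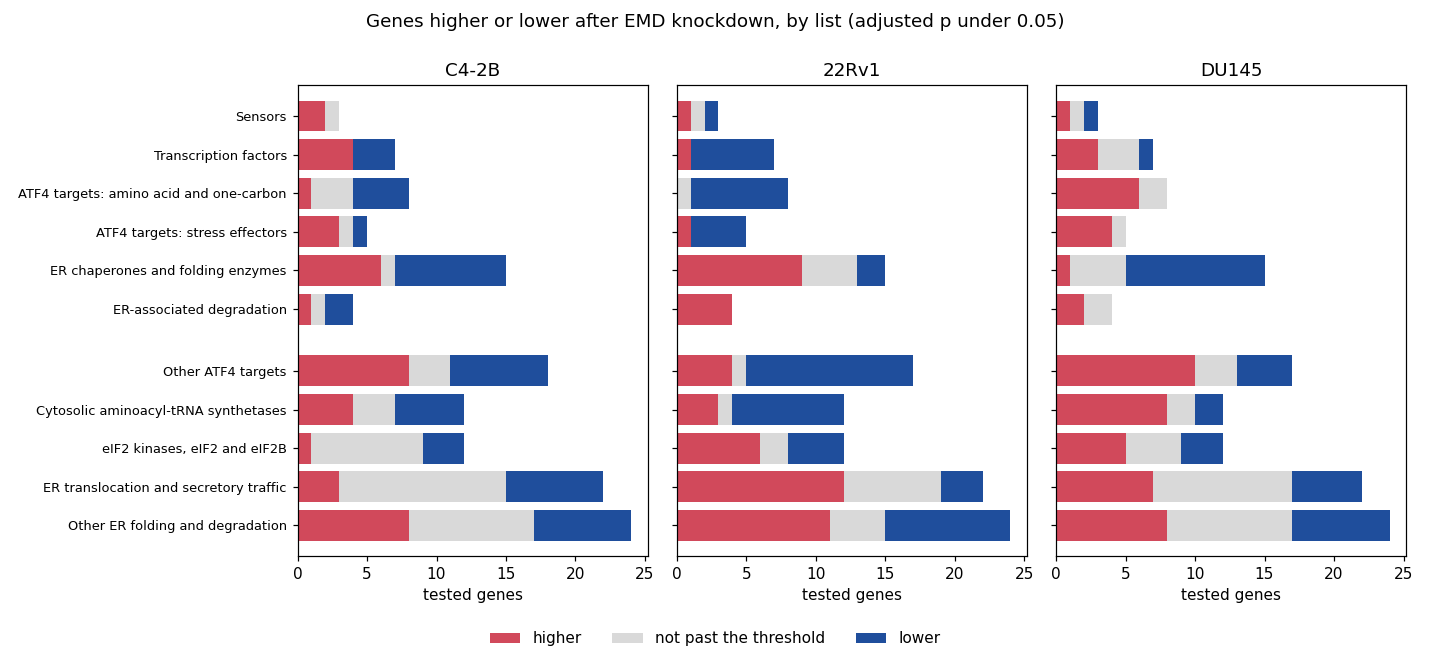
Number of tested genes (horizontal axis) that were higher, past no threshold or lower after EMD knockdown, for the 6 role groups of the 42 members (upper bars) and 5 lists of other pathway genes (lower bars) in C4-2B, 22Rv1 and DU145. Further ATF4 targets and aminoacyl-tRNA synthetases were mostly lower in 22Rv1 (12 of 17 and 8 of 12) and mostly higher in DU145 (10 of 17 and 8 of 12). Of all tested genes, 34.3% were lower in 22Rv1 and 24.1% higher in DU145.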

How the data were processed

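RNA of 18 libraries was sequenced, 3 EMD knockdown and 3 control libraries in each of C4-2B, 22Rv1 and DU145. The deposited values are whole-number expected counts, which the authors made with STAR and RSEM 1.3.1 on GRCh38, per the submitters' processing notes; the annotation release and the strandedness are not given in the sources used here. For DU145, 92 spike-in entries and 30 second copies of pseudoautosomal genes were left out. Replicate pairs of an arm differed by more than counting noise (chi-square per degree of freedom 2.28 to 8.70).

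Genes of a line had to pass filterByExpr (at least 10 reads, total of at least 15), TMM gave the scaling, and edgeR 4.0.16 in R 4.3.3 gave the robust quasi-likelihood F test, with Benjamini-Hochberg adjustment over all genes tested in the line (15801 in C4-2B, 16656 in 22Rv1 and 19377 in DU145) and a threshold of 0.05. A standard error is the log2 value divided by the root of its F. Levels are TMM-scaled CPM. Differences between lines came from 1 edgeR fit over the 17152 genes tested in all 18 libraries. Library totals set the precision: more reads lower the counting error, to which the spread between libraries adds. The scripts were tested on simulated data. Alternatives were library totals, no filter, a replicate block, DESeq2 1.42.0, limma-trend (limma 3.58.1) after cyclic loess, 1 fit over all lines, and each library left out in turn.

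Members and lists were chosen with earlier results of these data known. Library values were given for ATF4, XBP1, DDIT3 and HSPA5 in every line, for the sensors and transcription factors that passed, and for the 12 members of a line with the largest fold change past the threshold; TRIB3 in 22Rv1 was added after its values were seen. Other pathway genes were named by the largest fold changes past the threshold, at most 3 per list and line. Line differences were named for members with opposite calls, at most 6 per pair.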

Additional observations from a re-analysis of the deposited data

Results flagged for a closer look

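For 46 pairs of a member and 2 lines, the knockdown effects had opposite calls in the lines and their difference passed the threshold of the edgeR fit over all libraries. The second condition adds little to the first, since both rest on the same libraries. Values are given for 18 of them, the 6 with the largest difference for each pair of lines. The values are log2 differences of the effect in the first line less that in the second. For 22Rv1 less DU145 they were -4.64 for DDIT4, -2.52 for CHAC1, 2.03 for PDIA4, -1.94 for STC2, -1.63 for ERN1 and -1.62 for PHGDH. For C4-2B less 22Rv1 they were 1.58 for ERN1, -1.45 for PDIA4, -1.41 for MANF, 1.36 for SHMT2, 1.33 for CEBPB and 1.32 for DDIT3. For C4-2B less DU145 they were -1.16 for MTHFD2, 0.95 for CALR, 0.89 for HYOU1, -0.86 for CHAC1, 0.79 for PDIA3 and -0.66 for HSPA5. All of these differences kept their direction and their side of the threshold under the alternatives run for them. The named differences were chosen as the largest, so this says little of stability, and the other pairs were not followed through the alternatives. The calls within a line were less stable for CEBPB, CHAC1 and HYOU1 in C4-2B, each lost under at least 1 alternative. In 1 fit over all 18 libraries, CEBPB (edgeR adjusted p = 0.113) and CHAC1 (edgeR adjusted p = 0.21) did not pass in C4-2B. Line, table and batch label cannot be told apart, and whether the reagent of the DU145 cells differed was not tested.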

How the results depend on the processing

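Of the members' calls, 29 of 35 in C4-2B, 31 of 36 in 22Rv1 and 24 of 29 in DU145 were kept under all 12 alternatives of a line. Lost under at least 1 were ATF6, CANX, CEBPB, CHAC1, HYOU1 and XBP1 in C4-2B, EDEM1, EIF2AK3, HYOU1, SYVN1 and TRIB3 in 22Rv1, and ATF6, DNAJB9, PSPH, SHMT2 and SYVN1 in DU145. Limma-trend after cyclic loess gave 0 ATF4 targets higher in 22Rv1 in place of 1, 5 chaperones lower in place of 2, and values below 0 for ALDH18A1 (-0.13), PDIA3 (-0.073) and CANX (-0.069). Over all members it gave 12 higher and 25 lower there. Chaperones higher in DU145 numbered 2 with library totals and 1 to 2 when a library was left out. With each library left out in turn, CEBPB in DU145 ran from -0.18 to 0.18. Another 25 sign changes were of members past the threshold in neither setting. The cause of these changes was not tested. Deviations of same-numbered libraries had correlations of -0.04 to 0.03 in C4-2B and 22Rv1, and of 0.13, 0.29 and 0.04 in DU145. Libraries of unlike number had -0.23 to 0.14 in DU145, so pairing there is not settled. The labels do not say that equal numbers were paired, and numbers were not taken as pairs. A replicate block gave 17 members higher and 18 lower in C4-2B, 16 and 20 in 22Rv1, and 17 and 13 in DU145. It called 6623, 11146 and 9860 genes in all, against 6584, 11288 and 9232 without the block. Depth limited NUPR1 in DU145 and CHAC1 in 22Rv1.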
